A study of Mus musculus with 8 samples.

Results

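The 10 genes described here encode secreted inflammatory cytokines and chemokines: the interleukin-1 family genes Il1a, Il1b and Il1rn, the cytokines Tnf and Il6, the CC chemokines Ccl3, Ccl4, Ccl6 and Ccl9, and the CXC chemokine Cxcl2. They were chosen by gene symbol and product, not by a measured value, and are 10 of the 19938 genes with a probe set annotated to a single symbol. Each had 1 probe set. The RNA came from mouse bone marrow stem cells, the KSL SLAM fraction. These cells were sorted for c-Kit, Sca-1 and CD150 and against CD41, CD48 and the lineage markers. The 4 G-CSF samples were from mice given granulocyte colony-stimulating factor under the skin, at 125 mcg per kg 2 times a day, and were labelled 36 hours. The 4 PBS samples were from control mice given saline, also labelled 36 hours. Each sample pooled 5 to 10 mice and was hybridized to its own MoGene 1.0 ST array, and the sources used here give neither strain nor age. The comparison asks which stem cell transcripts differ after G-CSF, and the published work from this series deals with Toll-like receptor signalling, whose usual products include these cytokines.

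Interleukin-1 alpha and beta signal through the same receptor, while the product of Il1rn occupies that receptor without signalling. TNF and IL-6 are the other classical early cytokines of inflammation, and together with interleukin-1 they are known to push stem cells and progenitors towards myeloid output. Chemokines attract leukocytes along a gradient: Cxcl2 acts on neutrophils through Cxcr2, Ccl3 and Ccl4 attract monocytes and T cells, and Ccl6 and Ccl9 are rodent chemokines that act through Ccr1. Ccl3 is also known as an inhibitor of stem cell proliferation. Many of these genes are induced by NF-kB, which binds kappaB sites in their promoters.

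The promoters of 4 members are shown because 3 of them, Il1b, Cxcl2 and Ccl9, had the smallest p-values among the members, and the last, Il6, carries several of the searched motifs and did not stand apart after G-CSF. RefSeq promoter windows (GRCm38.p6) were matched by symbol for 9 of the 10 members, Ccl4 being the one without an entry. The 250 bases before the start site are printed on the gene's own strand, in lower case, with matches to the kappaB consensus, the AP-1 motif TGANTCA or the C/EBP motif TTGCNNAA in capitals. Both strands were searched.
Il1b, chr2:129371140-129371389, minus strand: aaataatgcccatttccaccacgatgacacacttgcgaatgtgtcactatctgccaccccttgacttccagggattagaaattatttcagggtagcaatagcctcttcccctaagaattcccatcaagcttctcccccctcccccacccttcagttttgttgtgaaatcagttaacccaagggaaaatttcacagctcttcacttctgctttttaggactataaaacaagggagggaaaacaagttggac
Cxcl2, chr5:90903649-90903898, plus strand: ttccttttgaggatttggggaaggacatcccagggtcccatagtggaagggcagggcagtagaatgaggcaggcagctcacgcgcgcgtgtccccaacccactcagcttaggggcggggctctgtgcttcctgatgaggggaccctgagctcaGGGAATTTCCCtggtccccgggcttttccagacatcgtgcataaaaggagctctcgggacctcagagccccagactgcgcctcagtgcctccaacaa
Ccl9, chr11:83578637-83578886, minus strand: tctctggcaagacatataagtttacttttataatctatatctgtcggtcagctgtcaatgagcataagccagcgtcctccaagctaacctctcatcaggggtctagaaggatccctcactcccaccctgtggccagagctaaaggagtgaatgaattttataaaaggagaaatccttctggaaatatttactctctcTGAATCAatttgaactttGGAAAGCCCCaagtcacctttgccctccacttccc
Il6, chr5:30012864-30013113, plus strand: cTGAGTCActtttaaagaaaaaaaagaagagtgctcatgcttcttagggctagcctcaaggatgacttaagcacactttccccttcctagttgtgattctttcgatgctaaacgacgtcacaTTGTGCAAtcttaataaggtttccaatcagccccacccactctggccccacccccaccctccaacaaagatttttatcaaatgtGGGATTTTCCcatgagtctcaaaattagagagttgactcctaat

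The kappaB consensus was found in the windows of Il6, Ccl9 and Cxcl2, and in 3.9% of 32851 promoter windows of the same length. In Cxcl2 the capitals are 2 overlapping matches, 1 on each strand, which begin 97 and 96 bases before the start site. The Ccl9 match begins 35 bases before the start site and lies next to an AP-1 match at 53, and the Il6 match begins at 44. AP-1 letters were present in Il1a, Il1rn, Il6 and Ccl9 (6.75% of all windows), and the C/EBP letters in Il6 alone (9.56%). The STAT motif TTCNNNGAA was in none of the 11 windows of the members, against 7.02% of all windows. The Il1b window held none of these motifs, and its TATAAA begins 31 bases before the start site. These matches are descriptions of the letters in a short window.

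One array, PBS replicate 3, differed from the other 7 and touches several values below. Its interquartile range was 1.68 on the log2 scale, against 2.42 to 2.80 in the others, and it correlated with them at 0.883 to 0.903, where they correlated with each other at 0.956 to 0.977. The stem cell genes Kit and Hlf were present at mean log2 intensities of 10.70 ± 0.20 and 10.51 ± 0.44 (SD, n = 4) in the PBS arrays, and none of 13 stem cell markers passed the threshold between the groups. RNA of a whole sort was measured, so fewer cells of a type and less RNA per cell cannot be told apart. Without PBS replicate 3 the log2 fold changes were 1.71 for Il1b, 1.31 for Cxcl2 and 0.75 for Ccl9, and again no member passed.

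None of the 10 members passed an adjusted p of 0.05 (limma, Benjamini-Hochberg over all genes), where 19 genes were called higher (0.0953% of those tested) and 0 lower (0%). At an unadjusted p under 0.05, 3 members were higher, Il1b, Ccl9 and Cxcl2, against 6.07% of all genes, and 0 were lower, against 2.94%. The log2 fold change of G-CSF over PBS was above 0 for 8 members, against 41.7% of all genes, and below 0 for Il1rn and Il6. The median over the members was 0.49, beside -0.07 over all genes and 0.13 over the 9969 genes at or above the median gene's intensity. The sign of Il1rn turned under other scalings, and 9 members were then above 0. Ccl9 was the 1 member whose groups did not overlap, whereas 3.37% of all genes lay fully higher after G-CSF and 2.78% fully lower. The mean log2 intensity of 6 members, Il1b, Cxcl2 and the 4 CC chemokines, was at or above the median gene's 5.84, while Il1a, Il1rn, Tnf and Il6 lay below it. No detection call was available to say whether those 4 were above background.

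**Figure D1:**
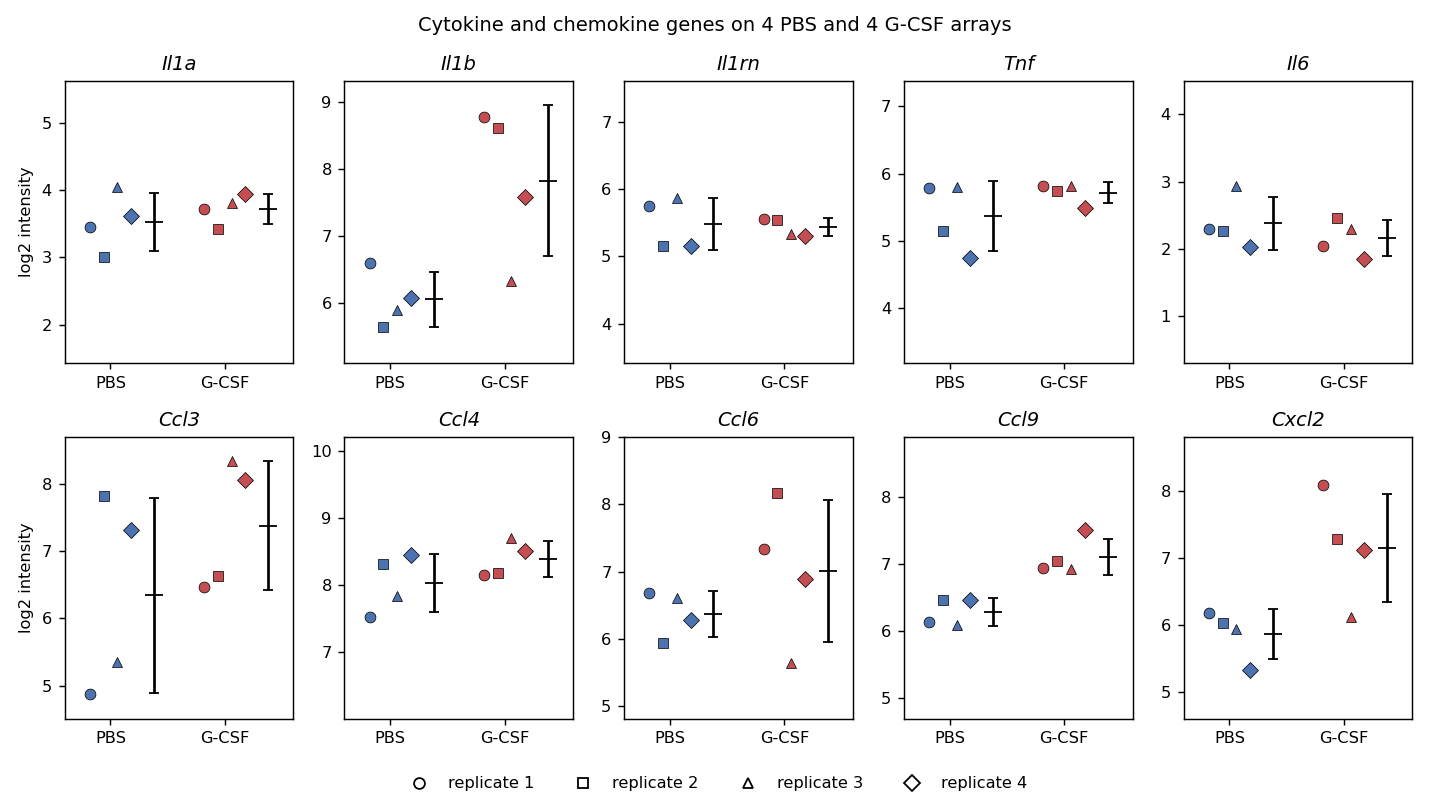
Log2 intensity (vertical axis, a span of 4.2 in every panel) of each of the 10 genes on the 4 PBS and 4 G-CSF arrays, with symbols for replicates and black bars for mean and SD (n = 4). Ccl9 is the 1 panel in which the groups do not overlap, and Il1b spreads from 6.33 to 8.77 after G-CSF.

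Il1b, the secreted and inflammasome-processed interleukin-1, had the largest difference of the members. Its log2 intensity was 6.60, 5.65, 5.89 and 6.08 in PBS replicates 1 to 4 and 8.77, 8.62, 6.33 and 7.59 in G-CSF replicates 1 to 4. G-CSF replicates 1, 2 and 4 lay above every PBS array, while G-CSF replicate 3 lay below PBS replicate 1. The mean was 7.82 ± 1.13 after G-CSF and 6.06 ± 0.40 after PBS (SD, n = 4), a 3.41-fold difference with an unadjusted 95% interval from 1.68 to 6.92. On the log2 scale the difference was 1.77 ± 0.46 SE (limma adjusted p = 0.298). Without G-CSF replicate 3 it was 2.27 ± 0.32 SE and passed (limma adjusted p = 0.0392, against 0.0392 to 0.65 over 18 alternatives), in a fit that called 0.155% of all genes.

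Il1a, an alarmin that acts on the same receptor, had overlapping groups. Its values were 3.46, 3.01, 4.05 and 3.62 in the PBS arrays and 3.72, 3.42, 3.81 and 3.95 in the G-CSF arrays. The highest and the lowest of the 8 values were both PBS arrays, and the highest was PBS replicate 3. Its log2 fold change was 0.19 ± 0.23 SE (limma adjusted p = 0.726), with a 95% interval from -0.31 to 0.70, and ran from 0.018 without PBS replicate 2 to 0.37 without PBS replicate 3.

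Il1rn, the receptor antagonist, measured 5.76, 5.15, 5.87 and 5.16 in the PBS arrays and 5.56, 5.55, 5.33 and 5.31 in the G-CSF arrays, all 4 of the latter between the PBS extremes. The difference was -0.05 ± 0.21 SE on the log2 scale (limma adjusted p = 0.926), with a 95% interval from -0.51 to 0.41. Without PBS replicate 3 the value was 0.08.

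Among 24 measured genes of the interleukin-1 family, its receptors and its processing, 0 passed and 6 were higher at an unadjusted p under 0.05, with 0 lower. Il1f9, which encodes IL-36 gamma, differed by 1.84 ± 0.55 SE on the log2 scale (limma adjusted p = 0.357). Its G-CSF values of 7.68, 8.35, 6.01 and 5.74 all lay above the PBS values of 5.70, 4.28, 5.63 and 4.83, although the closest pair nearly touched. The inflammatory caspase Casp4 had 0.73 and Il18r1, a chain of the interleukin-18 receptor, 0.74, both short of the threshold. The median of the list was 0.20. It was 0.26 to 0.32 under 5 other settings, which changed the scaling, weighted the arrays or left out PBS replicate 3.

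Tnf, the founding TNF family cytokine, had overlapping groups. Its values were 5.78, 5.15, 5.80 and 4.74 in the PBS arrays and 5.82, 5.74, 5.81 and 5.49 in the G-CSF arrays. The PBS arrays fell into a higher and a lower pair, and all 4 G-CSF arrays lay above the lower pair. Its log2 fold change was 0.35 ± 0.25 SE (limma adjusted p = 0.614), with a 95% interval from -0.19 to 0.89. It was 0.14 without PBS replicate 4 and 0.49 without PBS replicate 3. Of 16 genes of TNF reception and release, 0 passed. The receptors Tnfrsf1a, with 0.87 ± 0.27 SE, and Tnfrsf1b, with 0.52 ± 0.22 SE, were 2 that had an unadjusted p under 0.05, and the lymphotoxin gene Lta had -0.39. PBS replicate 3 was the lowest array for Tnfrsf1a, at 7.43 against 8.20 to 8.89 in the other PBS arrays.

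Il6, whose product acts through Il6ra and gp130, had low signal on every array. It measured 2.29, 2.26, 2.94 and 2.02 in the PBS arrays and 2.04, 2.46, 2.30 and 1.85 in the G-CSF arrays. The groups overlapped, and PBS replicate 3 was again the highest array. The log2 fold change was -0.22 ± 0.23 SE (limma adjusted p = 0.7), and ran from -0.34 without PBS replicate 4 to -0.030 without PBS replicate 3. In linear units the PBS values were 4.88, 4.80, 7.68 and 4.05, near the lowest deposited intensity of 2.15. Of 12 measured genes of the IL-6 family, 0 passed and 1 was higher at an unadjusted p under 0.05. That gene was Osm, oncostatin M, with 1.11 ± 0.40 SE, whose G-CSF values of 6.90, 8.26, 6.27 and 6.13 lay above the PBS values of 5.47 to 6.12, the lowest only just. Il6ra had 0.38 ± 0.18 SE and Il11 had -0.38.

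**Figure D2:**
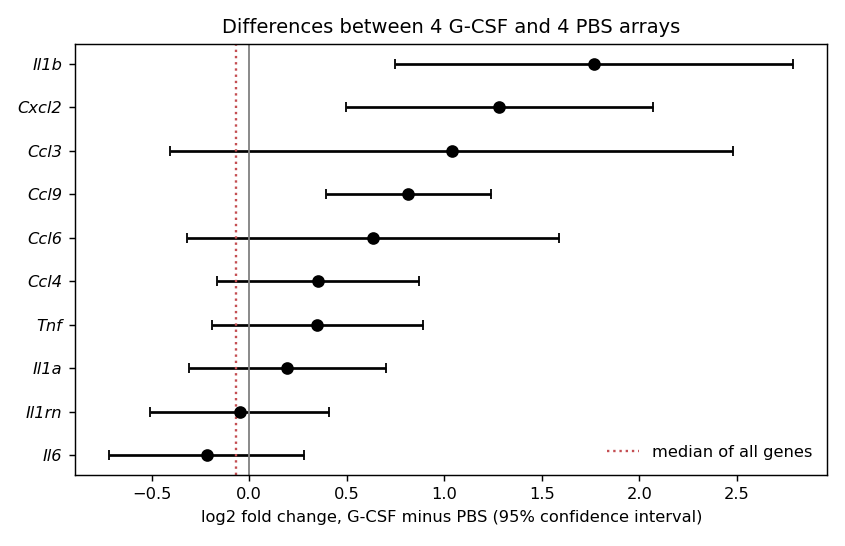
Log2 fold change of G-CSF over PBS (horizontal axis) for each gene with its unadjusted 95% confidence interval from limma, 4 arrays per group. The solid line is 0 and the dotted line the median of all genes, -0.07; the intervals of Il1b, Cxcl2 and Ccl9 lie above 0, and none of the 10 passed after adjustment.

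Cxcl2, the neutrophil attractant, had the next largest difference after Il1b. It measured 6.17, 6.03, 5.94 and 5.33 in the PBS arrays and 8.08, 7.28, 6.11 and 7.12 in the G-CSF arrays. G-CSF replicate 3 was the only G-CSF array not above every PBS array, falling just short of PBS replicate 1. The mean was 7.15 ± 0.81 after G-CSF and 5.87 ± 0.37 after PBS (SD, n = 4), 2.43-fold higher with an unadjusted 95% interval from 1.41 to 4.2. On the log2 scale this was 1.28 ± 0.36 SE (limma adjusted p = 0.316), and 1.63 without G-CSF replicate 3 (limma adjusted p = 0.097, against 0.097 to 0.703 over 18 alternatives).

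Ccl9, a CC chemokine acting through Ccr1, had a smaller difference with little spread within the groups. It measured 6.14, 6.46, 6.09 and 6.47 in the PBS arrays and 6.94, 7.05, 6.92 and 7.51 in the G-CSF arrays. All 4 G-CSF values lay above all 4 PBS values. The groups also stayed apart with median centring and in the settings that used quantile normalization. The rest of the 18 alternatives kept the order of the Ccl9 values or left out an array. They could not have made the groups overlap, so they do not test the separation. The mean was 7.10 ± 0.27 after G-CSF and 6.29 ± 0.20 after PBS (SD, n = 4), 1.76-fold higher with an unadjusted 95% interval from 1.32 to 2.36. The difference of 0.82 ± 0.19 SE on the log2 scale ranked 121 of 19938 genes by p, yet the limma adjusted p was 0.218. It was 0.132 to 0.576 over the alternatives.

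Ccl6, its neighbour and close relative, had overlapping groups. Its values were 6.68, 5.94, 6.61 and 6.27 in the PBS arrays and 7.33, 8.17, 5.64 and 6.89 in the G-CSF arrays. G-CSF replicates 1, 2 and 4 were higher than every PBS array, and G-CSF replicate 3 was the lowest of all 8. Its log2 fold change was 0.64 ± 0.43 SE (limma adjusted p = 0.609), and moved from 0.25 without G-CSF replicate 2 to 1.09 without G-CSF replicate 3.

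Ccl3, known as MIP-1 alpha, had the widest spread of the members. It measured 4.87, 7.82, 5.36 and 7.32 in the PBS arrays and 6.47, 6.64, 8.34 and 8.06 in the G-CSF arrays. The PBS arrays fell into a low pair, replicates 1 and 3, and a high pair, replicates 2 and 4, and the high pair exceeded G-CSF replicates 1 and 2. The log2 fold change was 1.04 ± 0.66 SE (limma adjusted p = 0.594), with a 95% interval from -0.41 to 2.48. It was 0.55 without PBS replicate 1 and 0.71 without PBS replicate 3.

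Ccl4, known as MIP-1 beta, followed the same arrays over a smaller range. It measured 7.52, 8.32, 7.84 and 8.45 in the PBS arrays and 8.15, 8.18, 8.70 and 8.51 in the G-CSF arrays, so that replicates 1 and 3 were again the low PBS pair. The log2 fold change was 0.35 ± 0.24 SE (limma adjusted p = 0.607), and 0.18 without PBS replicate 1. Over the 8 arrays Ccl3 and Ccl4 correlated at Pearson r = 0.966 (exact permutation p = 0.000174) and Spearman rho = 0.976 (exact permutation p = 0.000397). Adjusted over the 45 pairs of members, these were 0.00781 and 0.0179. Without PBS replicates 1 and 3, the 2 arrays farthest from the Ccl3 median, r was 0.893 over 6 arrays. The RefSeq models of Ccl3 and Ccl4 overlap, and whether their probe sets read each other's transcripts was not tested.

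Within the G-CSF group the members were high on different arrays. Il1b and Cxcl2 both ran from G-CSF replicate 1 at the top through replicates 2 and 4 to replicate 3 at the bottom, and Ccl6 differed from this order only in that replicate 2 was above replicate 1. Ccl3 and Ccl4 ran in the opposite order, with replicate 3 at the top, then 4, 2 and 1. The neutrophil markers, a list of 23 measured genes, had mean log2 intensities of 10.03, 9.93, 8.21 and 8.86 in G-CSF replicates 1 to 4, in the order of Il1b and Cxcl2, and 7.15 to 8.12 in the PBS arrays. All 23 had higher means after G-CSF, the median log2 fold change was 1.59, and 21 had an unadjusted p under 0.05. None passed over all genes (limma), but 2 did without PBS replicate 3. Of the defining neutrophil genes, S100a9 ran from 11.43 to 12.36 in the PBS arrays and from 12.46 to 13.28 after G-CSF. The groups of S100a8 overlapped, at 10.83 to 12.91 and 12.54 to 13.34, with PBS replicate 3 the highest PBS array, while Ly6g had 1.37 ± 0.57 SE and the sort-excluded Itgam 1.68 ± 0.38 SE. Monocyte and macrophage markers averaged 6.75 to 7.88 in the PBS arrays and 6.99 to 7.91 after G-CSF, with 17 of 23 positive and 0 past the threshold. At an unadjusted p under 0.05, 5 of them were higher and 0 lower, and the groups of Ccr2 and Ms4a6c did not overlap. The median of the 23 was 0.28, but 0.10 without PBS replicate 3. The brightest of the list, Nr4a1 and Vcam1, had -0.75 and -0.15, and Nr4a1 is also in the list of immediate early genes below. Within the G-CSF group the monocyte and macrophage mean (7.74, 7.91, 6.99 and 7.52) and the basophil and mast cell mean (5.41, 5.43, 4.99 and 5.18) both had the order of Ccl6, replicate 2, then 1, 4 and 3. The erythroid mean (7.466, 7.579, 6.763 and 6.778) had the same order. The megakaryocyte and platelet mean (7.08, 6.774, 6.495 and 6.656) had the order of Il1b and Cxcl2. The median log2 fold changes of these 2 lists were -0.24 and -0.30, so neither was higher after G-CSF. The basophil and mast cell mean was 5.03 to 5.48 in the PBS arrays, and 8 of its 13 genes had lower means after G-CSF. The part of RNA from any of these cell types in the Il1b, Cxcl2 and Ccl6 values was not tested. The Ccl9 values were in another order than the neutrophil mean, highest in G-CSF replicate 4 and close to each other in G-CSF replicates 1, 2 and 3. Of the 23 neutrophil markers, only Prtn3 and Mpo were also highest in G-CSF replicate 4. All the others were highest in G-CSF replicate 1 or 2. Ccl9 correlated with the neutrophil mean at Pearson r = 0.669 over the 8 arrays and -0.183 within the 4 G-CSF arrays. The same 2 values were 0.979 and 0.986 for Il1b, 0.94 and 0.897 for Cxcl2, and 0.779 and 0.904 for Ccl6. For Ccl3 they were -0.00983 and -0.982, and for Ccl4 0.0272 and, after rounding, -1. The part of neutrophil RNA in the Ccl9 values was not tested either.

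**Figure D3:**
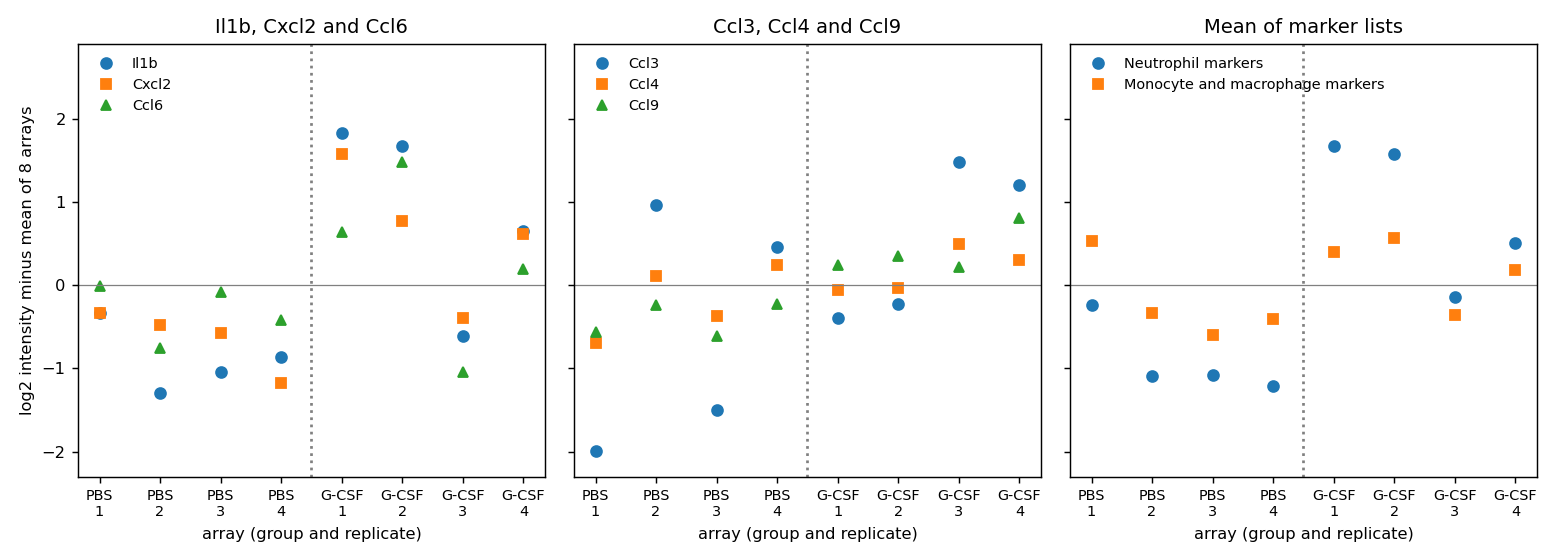
Log2 intensity of each gene or marker mean minus its mean over the 8 arrays (vertical axis), by array, with the dotted line between PBS and G-CSF arrays. Il1b, Cxcl2 and Ccl6 are low in G-CSF replicate 3 as the neutrophil and monocyte marker means are, where Ccl3 and Ccl4 have their highest values.

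By Pearson correlation over the 8 arrays, as a description without a test among 17042 named genes, the genes most like Il1b were the transcription factor Nfil3 (r = 0.983), the granulocyte stefin Stfa3 (0.983) and the neutrophil surface protein Cd177 (0.98). Those most like Cxcl2 were Rhoj (0.956), the secreted protease inhibitor Slpi (0.951) and R3hdm4 (0.946). Those most like Ccl3 were the interferon-inducible Oasl2 (0.967), Trim59 (0.967) and Ccl4 (0.966). Without PBS replicate 3, over 7 arrays, these 9 values were between 0.949 and 0.996.

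The receptors of these chemokines were measured on the same arrays, 8 of them with a probe set. None passed, and 2 were higher at an unadjusted p under 0.05. Cxcr2, the receptor of Cxcl2 and one of the neutrophil markers, measured 5.49, 4.59, 6.41 and 4.77 in the PBS arrays and 9.97, 10.22, 6.65 and 7.83 in the G-CSF arrays. The groups did not overlap, with a difference on the log2 scale of 3.35 ± 0.72 SE (limma adjusted p = 0.185). Ccr1, the receptor of Ccl3, Ccl6 and Ccl9, measured 3.36, 3.91, 4.25 and 3.59 in the PBS arrays and 6.08, 7.09, 4.14 and 3.5 in the G-CSF arrays. G-CSF replicates 1 and 2 were high and the others lay within the PBS range, for a log2 fold change of 1.42 ± 0.65 SE (limma adjusted p = 0.551). The third gene by p, Ccr1l1, had -0.33.

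Other chemokines were counted for comparison with the members. Of 31 further CC, CXC, CX3C and XC chemokines, 24 had a negative log2 fold change and 7 a positive one, 0 passed, and at an unadjusted p under 0.05 there were 4 lower and 0 higher. The median was -0.25, beside -0.07 over all genes, but -0.10 without PBS replicate 3 and -0.04 with quantile normalization as well. Over the 9969 genes at or above the median gene's intensity, the median was 0.13. These included 6 of the 10 members but 11 of the 31 other chemokines, and intensity was not matched in this comparison. The 3 with the lowest p were Cxcl13, a B cell attractant, with -0.82 (limma adjusted p = 0.224), the platelet chemokine Ppbp with -1.25 ± 0.37 SE (limma adjusted p = 0.347) and Cx3cl1 with -0.60. The groups of Cxcl13 and of Ppbp did not overlap. Of 33 further secreted cytokines, 0 passed, 22 were negative and 11 positive. The balance turned with quantile normalization, to 14 negative and 19 positive. Il17f had -0.46, Tnfsf10, the death ligand TRAIL, 0.65 and Il12a 0.59.

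Several members lie among related genes, and the order of the genes in RefSeq places these values side by side. On chromosome 11 the 4 CC chemokines follow each other as Ccl9, Ccl6, Ccl3 and Ccl4, with Ccl5 before them and the WAP domain genes Wfdc17, Wfdc18 and Wfdc21 as the next protein-coding genes after them. Ccl5, a T cell attractant, had -0.13 ± 0.24 SE on the log2 scale. The 4 members had between 0.35 and 1.04, and Wfdc17 and Wfdc18, 2 of the 19 genes past the threshold, had 5.33 ± 0.65 SE (limma adjusted p = 0.0143) and 1.96 ± 0.26 SE (limma adjusted p = 0.0198). On chromosome 5 Cxcl2 lies beside Cxcl1, which acts on the same receptor and had -0.12 ± 0.22 SE. In the same cluster Cxcl3 had 0.03 and Cxcl5 -0.22, while the platelet genes Pf4 and Ppbp had -1.01 and -1.25. The 95% intervals of Cxcl1, from -0.61 to 0.36, and of Cxcl2, from 0.49 to 2.07, did not overlap, and the difference between them was not tested.

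**Figure D4:**
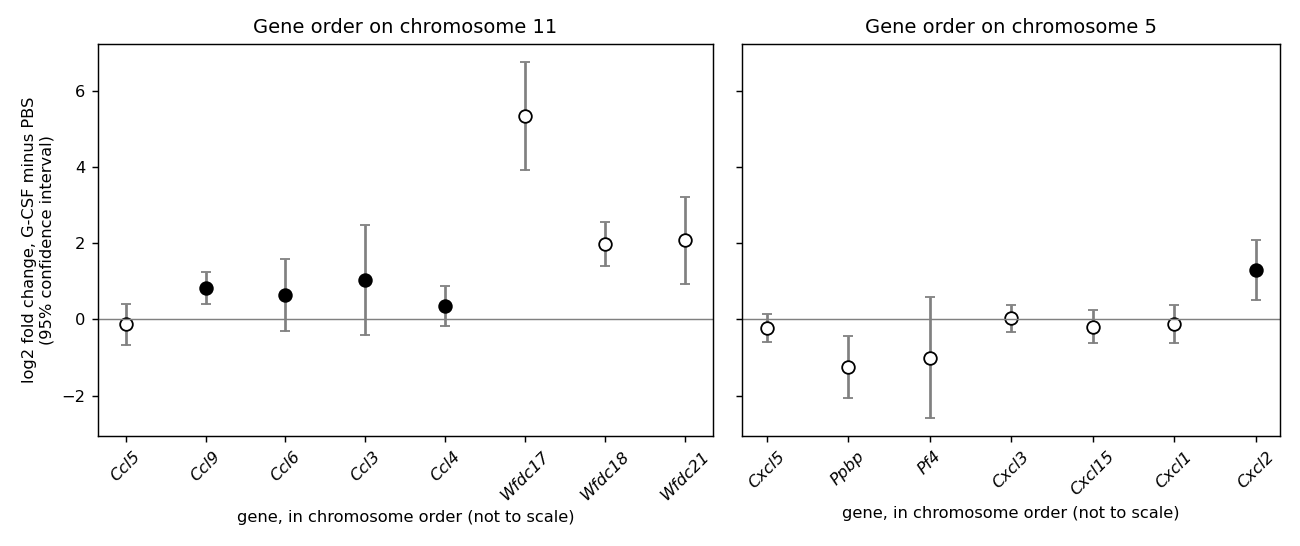
Log2 fold change of G-CSF over PBS with its unadjusted 95% confidence interval (vertical axis) for protein-coding genes in chromosome order, with members filled and other genes open. On chromosome 11 the 4 members lie between Ccl5 and Wfdc17, and on chromosome 5 Cxcl2 has the only interval above 0.

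Among genes induced by NF-kB, including those that feed back on it, 0 of 19 passed and 2 were higher at an unadjusted p under 0.05. These were Bcl3, a nuclear partner of NF-kB, with 1.70 ± 0.34 SE (limma adjusted p = 0.125), and the acute phase gene Saa3 with 1.3, and the groups overlapped in neither. Bcl3 measured 7.73, 6.24, 6.10 and 7.06 in the PBS arrays and 8.09, 8.87, 8.57 and 8.41 in the G-CSF arrays, so G-CSF replicate 3 was not low for it. The prostaglandin synthase gene Ptgs2 had 0.73, and Nfkbia, the inhibitor that NF-kB induces, had 0.27 ± 0.33 SE. The mean of the list was 6.56 to 6.86 in the PBS arrays and 6.94 to 7.06 in the G-CSF arrays, but its median log2 fold change of 0.05 was -0.03 without PBS replicate 3.

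None of the measured markers of dendritic cells (14), basophils and mast cells (13), B and plasma cells (11), T and natural killer cells (13), erythroid cells (9), megakaryocytes and platelets (10) or stroma and endothelium (14) passed the threshold, and the list medians ran from -0.30 to -0.11. At an unadjusted p under 0.05, 1 basophil and mast cell marker and 3 stromal and endothelial markers were higher. At the same threshold 2 B and plasma cell, 1 T and natural killer cell, 2 megakaryocyte and platelet and 1 stromal and endothelial marker were lower. Immediate early genes, which respond to cell handling, had a median of -0.11, and of -0.24 without PBS replicate 3, with 0 of 18 past the threshold. At an unadjusted p under 0.05, 2 were higher and 0 lower, or 2 and 4 without that array. The higher ones were Ier3 with 1.20 and Junb with 0.46, whose groups did not overlap. The list averaged 8.11 to 8.92 in the PBS arrays and 8.36 to 8.85 after G-CSF. Of 9 surface genes that the sort should exclude or that mark all blood cells, 0 passed, and Itgam and Ly6g were the 2 with an unadjusted p under 0.05.

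**Figure D5:**
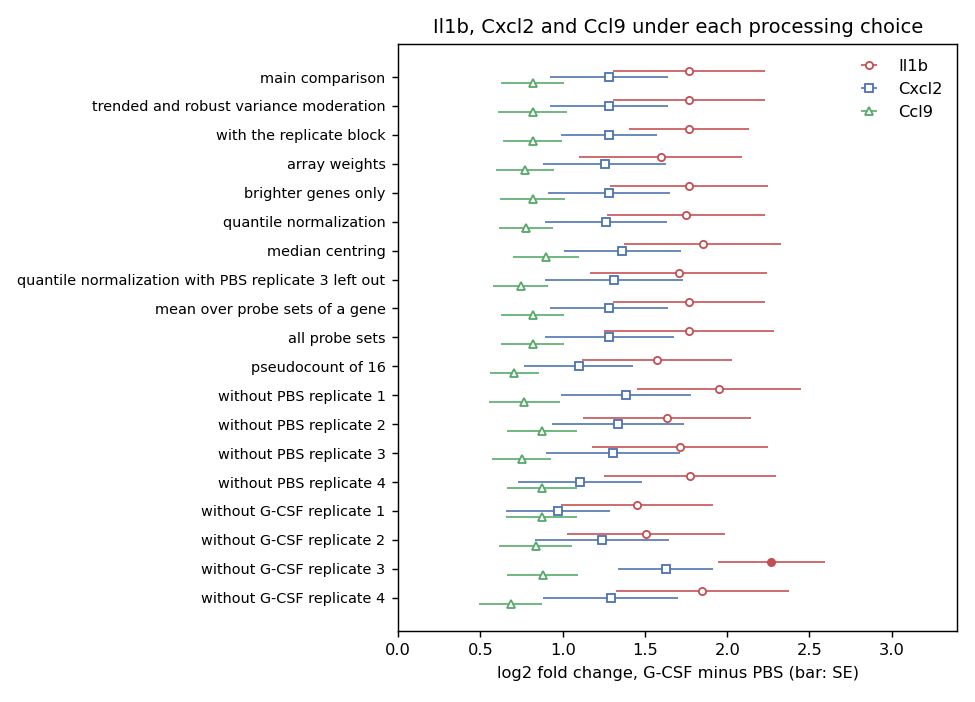
Log2 fold change (horizontal axis, bars are SE) of Il1b, Cxcl2 and Ccl9 in the main comparison and under each of 18 processing alternatives; filled symbols mark a limma adjusted p under 0.05. Every value is above 0, and the 1 filled symbol is Il1b without G-CSF replicate 3, at 2.27.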

How the data were processed

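Expression was measured on 8 one-colour MoGene 1.0 ST arrays. The deposited values are linear intensities, 1 per probe set and array (2.15 to 16162, array medians 47.0 to 54.8). The submitters' processing notes name RMA, with the software and options not given in the sources used here. Log2 was taken of each intensity. With 4 arrays a group, precision is limited by their number. The platform annotation gave 1 symbol to 21789 of 35556 probe sets, several to 1621 and none to 12146, and RefSeq changed 0 symbols. The brightest probe set represented each gene, giving 19938 genes. Group differences were fitted in R 4.3.3 by limma 3.58.1 (eBayes, 2-sided, Benjamini-Hochberg over all genes, threshold 0.05), without a filter on dim genes.

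The members, lists and tests were chosen with earlier results of these data known. The named genes are all members, the 3 lowest p of each pathway list, the 2 brightest markers of the stem cell, neutrophil and monocyte lists and the 3 genes most correlated with the 3 most variable members. Nfkbia, Itgam, Ly6g, Prtn3, Mpo, Ccr2, Ms4a6c, Ier3, Junb and the genomic neighbours of the members were chosen after values were seen. Alternatives covered the variance model, array weights, normalization, probe set choice, dim genes, pseudocount, replicate block and leaving out each array. Same-numbered arrays of the groups deviated together at r = -0.0254, 0.0559, 0.0623 and 0.135, so the numbers were not taken as pairs. The fit was tested first on simulated data, in which every array had the same spread for a gene. It recovered 37 of 67 genes with a log2 change of 1, 66 of 67 with 2 and 66 of 66 with 3, beside 13 false calls. Changes near 1 were thus often missed. P-values set the group difference against the spread between pooled samples, and the spread between single mice was not measured.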

Additional observations from a re-analysis of the deposited data

How the results depend on the processing

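Of the 10 members, Il1b alone passed in any of the 18 alternatives, without G-CSF replicate 3, so that leaving out 1 array gave 0 to 1 members past the threshold. At an unadjusted p under 0.05, 3 members passed. The members whose groups did not overlap numbered 1, 2 with median centring (Ccl9 and Cxcl2, where 5.9% of genes lay apart) and 1 to 4 when 1 array was left out. They were Il1b, Ccl6, Ccl9 and Cxcl2 without G-CSF replicate 3 (9.96% of genes) and Il1b, Ccl9 and Cxcl2 without PBS replicate 1 (11.5%). The sign turned for Il1rn alone, with a log2 fold change of 0.046 with array weights, 0.033 after quantile normalization, 0.034 with median centring, 0.14 after quantile normalization with PBS replicate 3 left out, and -0.16 to 0.082 when 1 array was left out. The cause was not tested. Over all genes the count of 19 was 40 with array weights, 10 after quantile normalization and 0 with all 35556 probe sets (limma, 2743 at an unadjusted p under 0.05, lowest adjusted p 0.0615). It was 3 to 31 when 1 array was left out (3 without G-CSF replicate 2, 7 without G-CSF replicate 4 and 10 without G-CSF replicate 1), 52 at an adjusted p under 0.1 and 1797 at an unadjusted p under 0.05. With the replicate block 23 genes and 0 members passed, and the block changed no call among the members. The 4 dim members have no detection call, and whether they were above background was not tested.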
